A study of Arabidopsis thaliana with 22 samples.

Results

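Salicylic acid is the plant hormone that carries defence against pathogens feeding on living tissue. It is made mainly in the chloroplast, is perceived by the NPR proteins and drives the transcription of a large set of defence genes through TGA and WRKY transcription factors. The lipase-like proteins EDS1, PAD4 and SAG101 act upstream of it and reinforce its accumulation. The 8 genes described here were PR1, WRKY70, WRKY53, WRKY54, PCC1, WAK1, LURP1 and SAG101, taken by name. Each was represented by 1 of the 22746 probe sets of the ATH1 array. WRKY53 and SAG101 were identified by the array annotation and the other 6 through the study's own tables. Those cover genes that changed in its mutants, pab2 pab8 among them, and ribosomal protein genes. The total RNA change of those 6 was therefore not independent of how their probe sets were found.

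The arrays were made from the aerial parts of seedlings of Arabidopsis thaliana, ecotype Columbia, aged 10 to 12 days and grown at 22 °C in continuous light on Murashige and Skoog agar with 1% sucrose. The pab2 pab8 double mutant, a single line carrying T-DNA insertions in PAB2 and PAB8, was grown alongside the wild type. PAB2 and PAB8 encode poly(A) binding proteins that act together with PAB4 in seedlings, which both genotypes retained. For each genotype there were 3 replicates of total RNA (TC), 4 of non-polysomal RNA (NP, free and monosomal transcripts) and 4 of polysomal RNA (PL, transcripts loaded with several ribosomes), 22 arrays in all. By the labels the replicates were grown at different times, and equal numbers were taken as plants of both genotypes grown together. For total RNA this pairing is an assumption, since the likeness of its same-numbered arrays lay within the range of unlike numbers. The translation state (TL) of a gene was the log2 PL signal minus the log2 NP signal of 1 genotype and replicate. All values are log2 signals from robust multi-array averaging, a method that corrects background, equalises the arrays and combines the probes of a set. Differences are pab2 pab8 minus wild type, and false discovery rates (FDR) come from limma over all probe sets.

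The labels of the mutant arrays held for both targeted genes. PAB2 signals in total RNA ran from 4.95 to 5.07 in pab2 pab8, against 10.55 to 11.01 in the wild type. PAB8 signals ran from 5.88 to 6.69 in pab2 pab8, against 9.89 to 10.34 in the wild type. Median signals ran from 6.12 to 6.23 over the total RNA arrays and from 4.68 to 4.99 over the fraction arrays, so total and fraction levels were not set against each other. Of 4 leaf markers, 1 had a named probe set, RCA, the activase of Rubisco, whose wild-type mean of 14.31 in total RNA changed by 0.00 in pab2 pab8 (FDR = 0.996, limma). Of 6 root markers, 2 were measured: PYK10, a root beta-glucosidase, had a wild-type total RNA mean of 12.22 and EXP7, a root hair expansin, of 4.61, and neither passed the threshold. In RNA from whole tissue, more cells expressing a gene and more RNA per cell cannot be told apart.

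In total RNA, 6 of the 8 genes were more than 2-fold higher in pab2 pab8 than in wild-type seedlings at an FDR under 0.05: PR1, WRKY70, WRKY54, PCC1, WAK1 and LURP1. The same rule called 99 of the 22746 probe sets higher, or 0.435%. The median change of the 8 genes was 1.46, against -0.03 over all probe sets. WRKY53 and SAG101 did not reach the rule. The 6 called genes were the 6 found through the study's tables of changed genes, and the 2 named by the array annotation were not called. The contrast with all probe sets was therefore not independent of how the genes were found.

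Among the secreted and membrane proteins at the end of the pathway, PR1, a small secreted protein of the CAP family that serves as the standard marker of salicylic acid responses, changed most. Its total RNA signals were 8.49, 8.75 and 8.75 in pab2 pab8, against 6.49, 6.57 and 7.17 in the wild type. The genotypes did not overlap, and even the lowest mutant array stood well above the highest wild-type array. The mean was 8.66 ± 0.15 in pab2 pab8 and 6.74 ± 0.37 in the wild type (SD, n = 3 each), a difference of 1.92 ± 0.17 (SE), or 3.79-fold (FDR = 0.00106, limma). This was the 20th largest increase among the 22746 probe sets. PCC1, a small cysteine-rich membrane peptide whose gene responds to pathogens and to the circadian clock, gave 10.75, 10.65 and 10.38 in pab2 pab8, against 9.28, 8.57 and 9.86 in the wild type. Here the third wild-type array came close to the lowest mutant array without reaching it. PCC1 differed by 1.36 ± 0.27 (SE), or 2.57-fold (FDR = 0.0299, limma).

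WAK1, a receptor-like kinase that binds pectin in the cell wall, had total RNA signals of 9.36, 9.05 and 9.28 in pab2 pab8, against 7.56, 6.90 and 8.56 in the wild type. LURP1, a gene required for basal resistance to the downy mildew Hyaloperonospora, had signals of 9.75, 9.30 and 9.47 in pab2 pab8, against 7.85, 7.25 and 8.75 in the wild type. In both, the wild-type arrays were spread over more than 1 log2 unit while the mutant arrays lay close together, and the genotypes did not overlap. WAK1 was 2.94-fold higher in pab2 pab8 (1.56 ± 0.33, SE, FDR = 0.0381, limma) and LURP1 was 2.94-fold higher (1.56 ± 0.31, SE, FDR = 0.0306, limma).

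Of the 3 transcription factors, the group III WRKY proteins WRKY70 and WRKY54, close relatives with overlapping roles in salicylic acid signalling and senescence, were called higher. WRKY70, which promotes salicylic acid responses and restrains jasmonate responses, had total RNA signals of 8.53, 8.51 and 8.29 in pab2 pab8, against 6.71, 6.54 and 7.33 in the wild type. WRKY54 had signals of 6.48, 6.39 and 6.15 in pab2 pab8, against 5.44, 4.54 and 5.58 in the wild type. Neither gene's genotypes overlapped. WRKY70 differed by 1.58 ± 0.18 (SE), or 2.98-fold (FDR = 0.0037, limma), and WRKY54 by 1.15 ± 0.24 (SE), or 2.23-fold (FDR = 0.0348, limma). WRKY53, a group III factor best known for promoting leaf senescence, had signals of 5.41, 5.51 and 5.53 in pab2 pab8, against 5.12, 4.86 and 5.14 in the wild type. Its genotypes did not overlap either, but the difference of 0.44 ± 0.10 (SE), or 1.36-fold, was under 2-fold and missed the FDR threshold narrowly (FDR = 0.0503, limma).

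SAG101, the partner of EDS1 and the only member of the upstream node among the 8, had total RNA signals of 5.32, 5.46 and 5.13 in pab2 pab8, against 5.04, 5.15 and 5.24 in the wild type. The genotypes overlapped, and the difference of 0.16 had a 95% confidence interval of -0.08 to 0.41 (FDR = 0.435, limma).

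**Figure D1:**
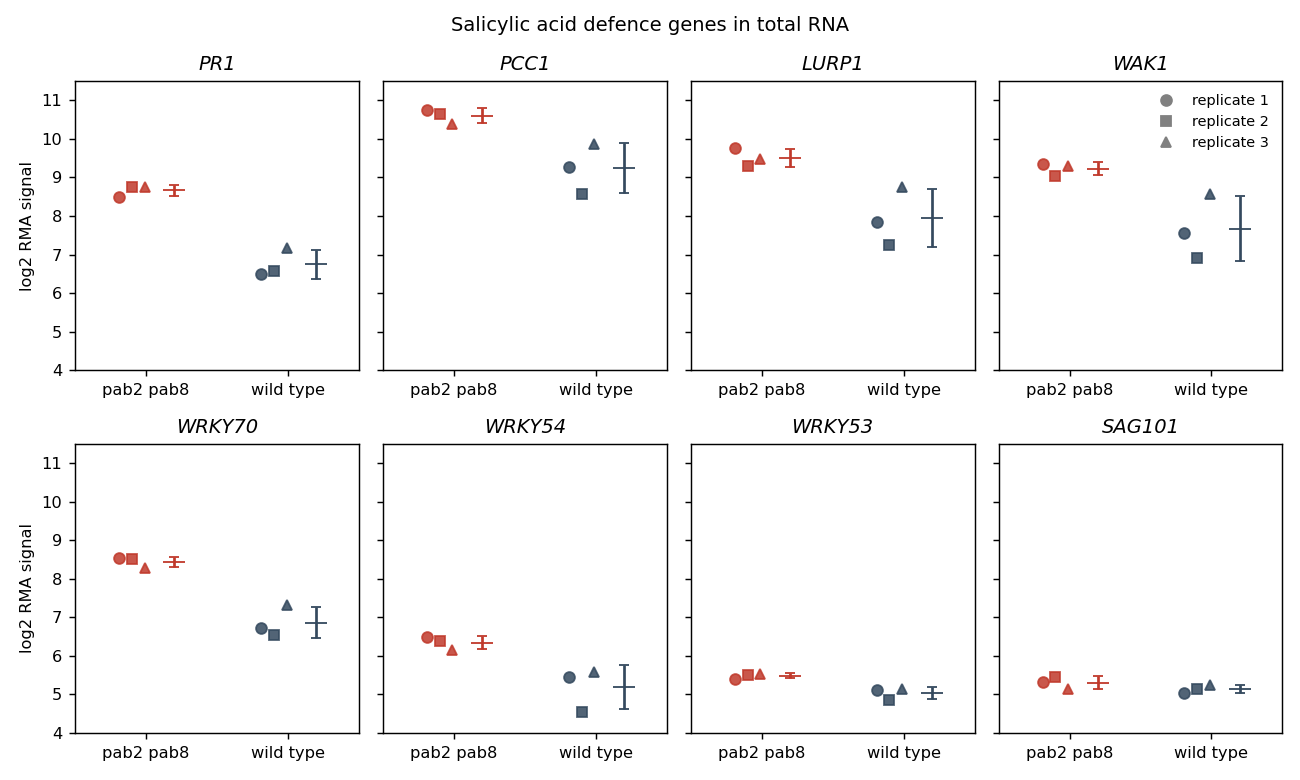
Log2 signals of the 8 genes in total RNA, 1 point per array (circle, square and triangle for replicates 1, 2 and 3), with the mean and SD beside the points (n = 3 per genotype). The pab2 pab8 points lie above all wild-type points for every gene but SAG101, and in 7 of 8 genes the wild-type SD is the larger. How many of all probe sets were apart in this way was not counted.

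The wild-type arrays set the precision of these differences. In 7 of the 8 genes the SD in total RNA was larger in the wild type than in pab2 pab8, SAG101 being the exception. Over all probe sets the median span was also the larger in the wild type, at 0.25 log2 units against 0.20 in pab2 pab8. WAK1 spanned 0.31 log2 units over the 3 mutant arrays and 1.65 over the 3 wild-type arrays, a wild-type span matched or exceeded by 0.163% of probe sets. With 2 arrays per genotype the calls were fragile. Without replicate 1 or without replicate 2 only PR1 passed (FDR = 0.0107 and FDR = 0.0484, limma), whereas without replicate 3 the same 6 genes passed. Over all probe sets, 122 were called in either direction with all replicates. The count was 96 without replicate 1, 48 without replicate 2 and 169 without replicate 3. Changes of the 6 genes stayed between 0.80 (WRKY54) and 2.09 (PR1) in every case.

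In the fractions, the replicates of 1 genotype were spread widely. In NP and PL of both genotypes, replicates 2 and 3 both stood above replicates 1 and 4 for WRKY70, WRKY54, WRKY53, PCC1, WAK1 and LURP1. Over all probe sets this order held in both genotypes for 5.61% in NP and 14.5% in PL. It did not hold for PR1 in the wild type or for SAG101 in NP. In wild-type PL the signal of PCC1 spanned 5.97 log2 units, or 62.8-fold, the largest span of all 22746 probe sets, whose median span was 0.39.

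PCC1 had NP signals of 7.88, 11.06, 11.10 and 8.44 in replicates 1 to 4 of pab2 pab8, against 4.73, 10.23, 9.45 and 6.80 in the wild type. Its PL signals were 8.05, 11.78, 12.03 and 8.82 in pab2 pab8, against 4.61, 10.58, 10.30 and 7.25 in the wild type. The genotypes overlapped in both fractions, since the low mutant replicates lay below the high wild-type replicates. Yet the mutant was the higher in 4 of 4 pairs of equal number. LURP1 had PL signals of 5.32, 8.37, 8.87 and 6.07 in pab2 pab8, against 4.26, 6.97, 6.72 and 5.13 in the wild type. WAK1 had PL signals of 5.25, 7.91, 8.39 and 6.74 in pab2 pab8, against 4.28, 7.74, 7.31 and 6.03 in the wild type. Both showed the same pattern, with overlapping genotypes and a higher mutant in 4 of 4 pairs. The share of all probe sets with a higher mutant in 4 of 4 pairs was not counted. In NP, LURP1 was higher in pab2 pab8 in 3 of 4 pairs and WAK1 in 3 of 4.

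WRKY70 had PL signals of 5.32, 7.04, 7.38 and 6.12 in pab2 pab8, against 5.07, 6.18, 6.20 and 5.55 in the wild type. WRKY54 had PL signals of 3.57, 5.34, 5.70 and 3.42 in pab2 pab8, against 2.78, 4.17, 4.10 and 2.93 in the wild type. WRKY54 signals were low in the fractions, with means in PL of 4.50 ± 1.18 in pab2 pab8 and 3.49 ± 0.74 in the wild type and in NP of 4.53 ± 1.12 in pab2 pab8 and 3.87 ± 0.81 in the wild type (SD, n = 4 each), all below the array medians of 4.68 to 4.99. Both factors were higher in pab2 pab8 in 4 of 4 pairs in PL and in 4 of 4 in NP. WRKY70 had NP signals of 5.44, 7.42, 7.65 and 6.42 in pab2 pab8, against 4.82, 6.72, 6.38 and 5.42 in the wild type. WRKY53 was spread widely in NP, where it spanned 2.08 log2 units in pab2 pab8 and 1.93 in the wild type, and its 2 genotypes differed by 0.14 there, with the mutant the higher in 2 of 4 pairs.

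For PR1 the order of the replicates was another one in the wild type. Its PL signals were 4.74, 5.18, 7.03 and 4.53 in pab2 pab8, against 4.29, 4.41, 4.08 and 4.67 in the wild type. Replicate 3 of the mutant stood far above the rest, replicates 1 and 2 stood above all wild-type arrays by less, and replicate 4 lay within the wild-type range. The PL signals were low, with means of 5.37 ± 1.14 in pab2 pab8 and 4.36 ± 0.24 in the wild type (SD, n = 4 each), where the median probe set of the PL arrays lay between 4.89 and 4.99. In NP its signals were 4.72, 5.03, 5.79 and 4.81 in pab2 pab8, against 5.06, 4.72, 5.41 and 4.34 in the wild type, and the genotypes overlapped almost entirely. SAG101 lay between 4.22 and 4.72 in PL of pab2 pab8, against 3.92 to 4.74 in the wild type, also overlapping.

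**Figure D2:**
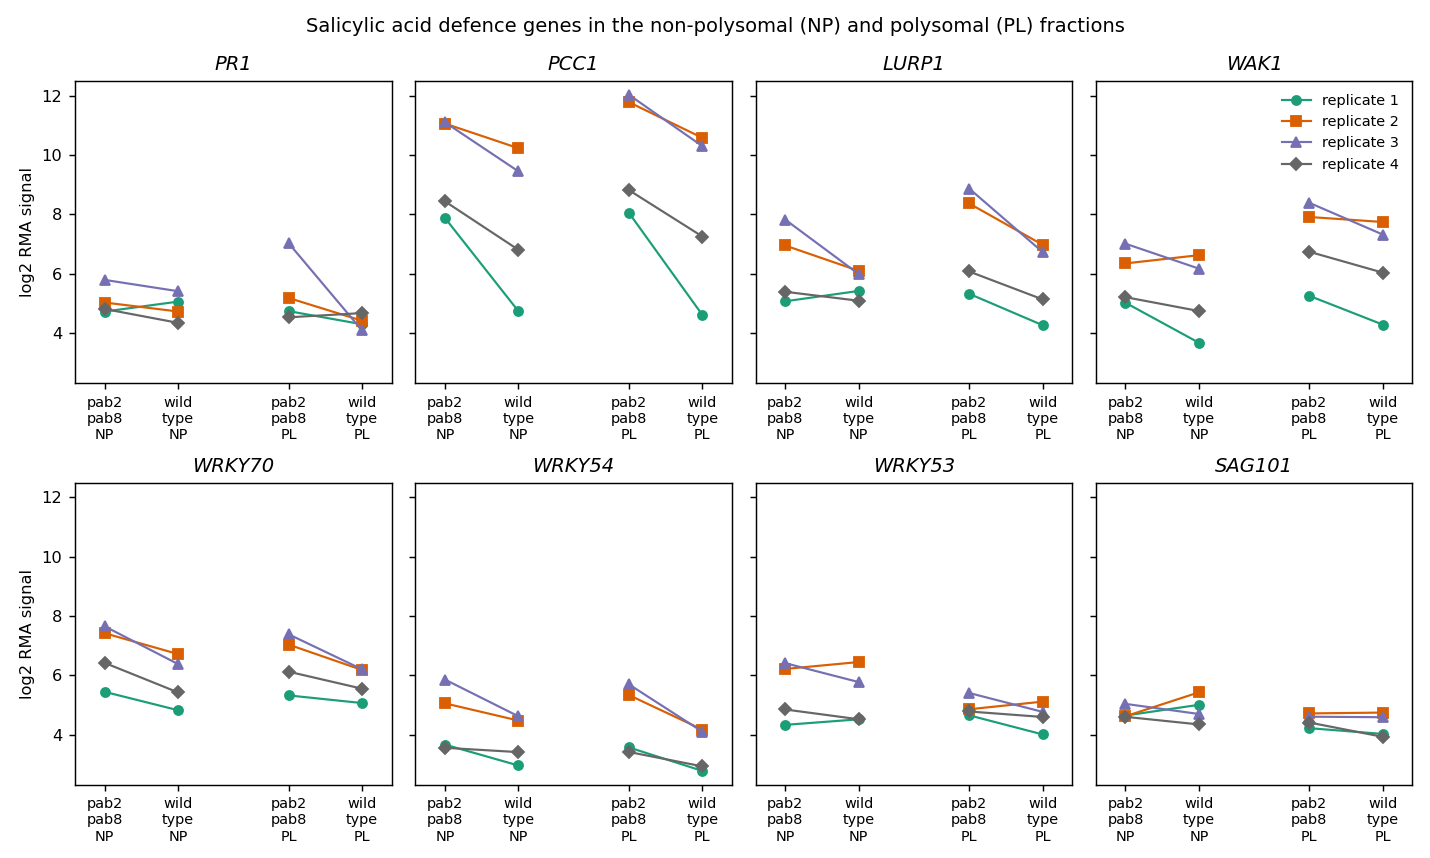
Log2 signals of the 8 genes in the non-polysomal (NP) and polysomal (PL) fractions, with lines joining pab2 pab8 and wild-type arrays of equal number (n = 4 pairs). Replicates 2 and 3 stand above replicates 1 and 4 in both genotypes for 6 genes, and the PCC1 lines run across about the whole plotted range.

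Tested without regard to the pairs, none of the 8 genes passed the FDR in NP or in PL (limma), and none had an unadjusted p under 0.05 in either. Among all probe sets, 17 (0.0747%) passed in NP and 47 (0.207%) in PL, with 1824 and 1728 below an unadjusted p of 0.05. A replicate block compares plants of equal number, taken as grown together. With it, 2 of the 8 genes were higher in pab2 pab8 in NP, where 0.369% of probe sets were, and 5 in PL, where 2.33% were. In NP these were PCC1 (1.82 ± 0.28, SE, FDR = 0.0148, limma) and WRKY70 (0.90 ± 0.16, SE, FDR = 0.0328, limma). In PL they were PCC1 (1.99 ± 0.29, SE, FDR = 0.00696, limma), LURP1 (1.39 ± 0.17, SE, FDR = 0.00329, limma) and WRKY54 (1.01 ± 0.16, SE, FDR = 0.00936, limma), which were all at least 2-fold higher, and WAK1 (0.73 ± 0.14, SE, FDR = 0.0205, limma) and WRKY70 (0.72 ± 0.14, SE, FDR = 0.0205, limma), which were less so. PR1, with a PL difference of 1.00, did not pass with the block (FDR = 0.199, limma), and its difference without replicate 3 was 0.36. WRKY53 and SAG101 did not pass either.

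**Figure D3:**
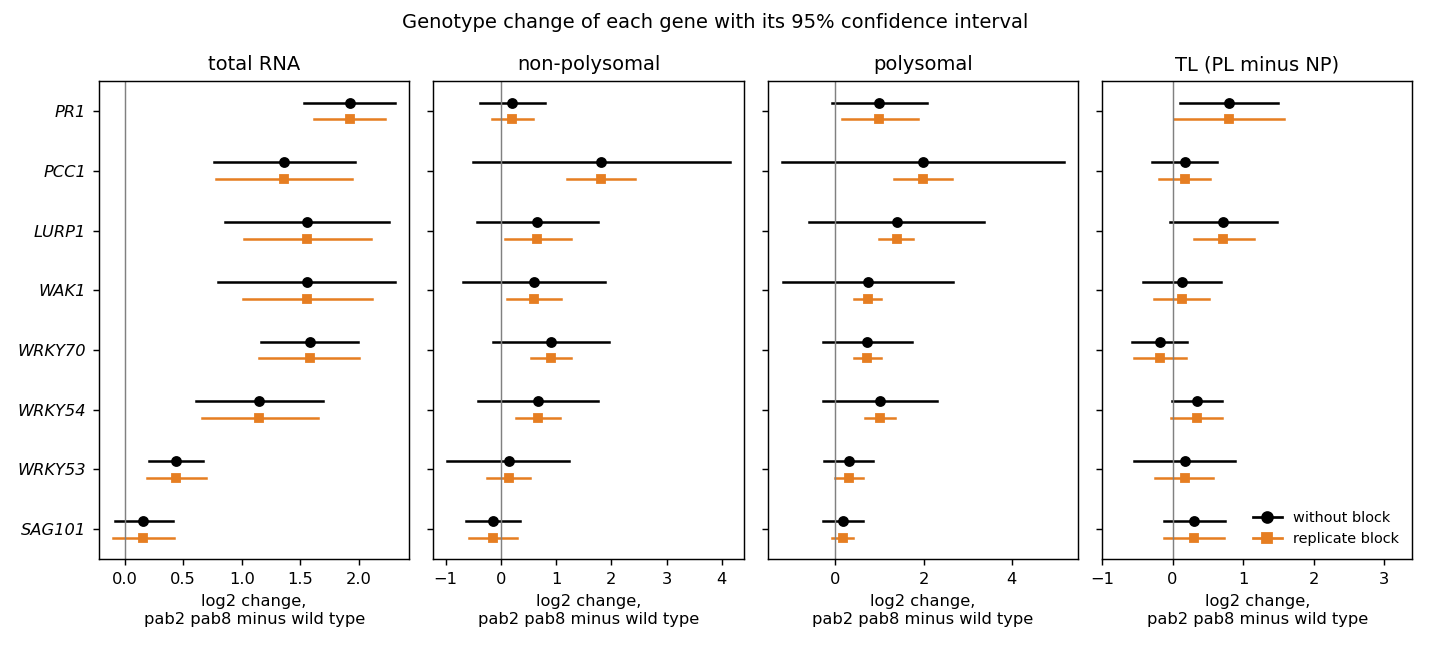
Log2 change (pab2 pab8 minus wild type) of each gene in total RNA, NP, PL and TL with its 95% confidence interval, without a block (black circles) and with a replicate block (orange squares). The block left the changes the same and narrowed the PCC1 interval in PL to 1.34 to 2.64 from -1.22 to 5.19, and the WAK1 interval in total RNA to 1.01 to 2.11 from 0.80 to 2.31. In total RNA it slightly widened the intervals of WRKY70 (to 1.15 to 2.00 from 1.16 to 1.99), WRKY53 and SAG101.

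None of the 8 genes passed the FDR in TL with or without the block (limma), among 7 probe sets (0.0308%) that did without it, and 1 of the 8, PR1, had an unadjusted p under 0.05 without it. The median TL change of the 8 genes was 0.24, against 0.05 over all probe sets. PR1 had TL values of 0.01, 0.15, 1.24 and -0.28 in pab2 pab8, against -0.76, -0.31, -1.32 and 0.33 in the wild type. The mutant was the higher in 3 of 4 pairs, the genotypes overlapped, and the mean difference of 0.80 ± 0.33 (SE, FDR = 0.523, limma) became 0.21 without replicate 3.

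LURP1 had TL values of 0.25, 1.42, 1.05 and 0.68 in pab2 pab8, against -1.16, 0.88, 0.74 and 0.04 in the wild type, higher in the mutant in 4 of 4 pairs. Its difference of 0.72 had a p of 0.058 without the block and of 0.00285 with it (FDR = 0.595 and FDR = 0.396, limma). WRKY54 had TL values of -0.10, 0.28, -0.16 and -0.14 in pab2 pab8, against -0.18, -0.31, -0.52 and -0.48 in the wild type. It was the 1 gene of the 8 whose genotypes did not overlap in TL, a ratio of low signals in its case. The lowest mutant value, -0.16, barely cleared the highest wild-type value, -0.18, and medians of the fraction arrays differed by more. The NP array behind the TL of 0.28 had a median of 4.68, against 4.89 or more on the other fraction arrays. The WRKY54 difference of 0.34 had a 95% confidence interval of -0.01 to 0.70 (FDR = 0.597, limma). With each array centred on its median it was 0.27 (FDR = 0.662, limma). For PCC1, WRKY70 and WAK1 the TL intervals included 0 and their bounds lay between -0.57 and 0.69. WAK1 transcripts were the only ones with TL above 0 on all 8 pairs of fractions, with means of 1.18 ± 0.63 in pab2 pab8 and 1.04 ± 0.30 in the wild type (SD, n = 4 each).

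The same comparison of changes was made between total RNA and each fraction, pairing equal numbers. Without the block, the change in total RNA differed from the change in NP for none of the 8 genes at an FDR under 0.05 (limma), where 8 probe sets (0.0352%) passed, and from the change in PL for none, where 3 (0.0132%) passed. PR1 alone had an unadjusted p under 0.05 against NP, and no gene of the 8 had one against PL. For PR1, the total RNA change exceeded the NP change by 1.80 ± 0.27 (SE, FDR = 0.0596, limma), by the same amount with the replicate block (FDR = 0.0234, limma), and by 1.72 ± 0.38 in a fit that did not pair the arrays (SE, FDR = 0.127, limma). That fit was added because total RNA did not follow the fractions by number. Across probe sets, deviations from the group mean correlated between -0.23 and 0.13 for total RNA and a fraction of the same genotype and number, and between 0.36 and 0.67 for NP and PL. PCC1 showed this plainly, since its wild-type signal in replicate 2 was the lowest of the 3 in total RNA and the highest of the 4 in NP and PL. Whether total RNA came from the same plants as the fractions of equal number was not tested.

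The 8 genes were alike to different degrees. After the mean of each array kind was removed, WRKY70, WRKY54, PCC1, WAK1 and LURP1 correlated with each other between 0.87 and 0.95 over the 22 arrays (10 pairs of genes). On the 16 fraction arrays, with the mean of each genotype and fraction removed as well, the same pairs gave 0.86 to 0.98, so this likeness did not rest on the difference between genotypes. With these 5 genes, WRKY53 correlated between 0.71 and 0.81 over the 22 arrays and between 0.71 and 0.88 on the fraction arrays with those means removed. PR1 correlated with them between 0.49 and 0.73, and between 0.38 and 0.63 with the means removed. SAG101 correlated with them between 0.49 and 0.63, and between 0.56 and 0.68 with the means removed. The arrays of equal number were taken to share a time of growth, which these values include. Outside the 8, the probe set most like their mean profile had no name here (r = 0.953), and neither had the next (r = 0.948). They were followed by AT1G76960 (r = 0.946), KAT3, a subunit of potassium channels (r = 0.938), and AT1G74440 (r = 0.937). In total RNA, the first unnamed probe set changed by 0.30 and did not pass (FDR = 0.142, limma). The second unnamed probe set was higher in pab2 pab8 by 1.49 (FDR = 0.0443, limma). AT1G76960 was higher in pab2 pab8 by 0.84 (FDR = 0.0285, limma), KAT3 by 0.83 (FDR = 0.0134, limma) and AT1G74440 by 0.55 (FDR = 0.014, limma).

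Chromosomal neighbours were looked up in the TAIR10.1 annotation. LURP1 and PR1 lie 8 annotated loci apart on chromosome 2, and the measured loci between them were the pseudogenes AT2G14570, AT2G14590 and AT2G14595. Their total RNA changes were 0.15, -0.07 and -0.03, and none passed the FDR (limma). PCC1 lies 7 annotated loci from AT3G22240 on chromosome 3. This neighbour, singled out after its values were seen, correlated with the mean profile at r = 0.925 over the 22 arrays. Its total RNA change of 0.91 had an FDR of 0.0518 (limma), and with the replicate block it was higher in pab2 pab8 in PL by 1.26 (FDR = 0.00545, limma) and in NP by 1.15 (FDR = 0.0343, limma). The neighbours outside the 8 genes that did pass in total RNA were all lower in pab2 pab8. They were AT5G14920 beside SAG101 (-1.04, FDR = 0.00287, limma), AT4G23820 beside WRKY53 (-0.62, FDR = 0.0232, limma) and AT2G40720 near WRKY54 (-0.40, FDR = 0.0401, limma).

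Few other genes of the pathway had a named probe set. Of 65 further genes of salicylic acid synthesis, signalling and response, 9 had one and are counted as measured. In total RNA none of these was higher and 1 lower at an FDR under 0.05 (limma). An unadjusted p under 0.05 was found for 6 of them, and for 4766 of all 22746 probe sets (limma). Among 5 measured of 17 genes of synthesis and modification, PAL4, a phenylalanine ammonia-lyase, was lower by -0.41 ± 0.10 (SE), at the very edge of the threshold (FDR = 0.05, limma), and did not pass with the block (FDR = 0.0645, limma). PAL2, another such enzyme, changed by 0.38 (FDR = 0.0748, limma) and BSMT1, a methyltransferase that makes methyl salicylate, by -0.27 (FDR = 0.173, limma). EDS1B, 1 measured of 7 in the EDS1 node, changed by 0.23 (FDR = 0.226, limma). Of 12 other responsive genes 3 were measured: WRKY60, a factor that acts with WRKY18 and WRKY40, changed by 0.22 (FDR = 0.194, limma), AZI1, a lipid transfer protein of systemic immunity, by 0.15 (FDR = 0.459, limma), and the glutaredoxin GRXC9 by -0.01 (FDR = 0.983, limma). None of the 14 perception and TGA genes, the 10 other group III WRKY genes or the 5 relatives of WAK1 and PR1 had a named probe set.

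Other branches of defence did not pass in total RNA. Of 17 genes of jasmonate and ethylene defence 5 were measured, and none passed: LOX2, a lipoxygenase of jasmonate synthesis, changed by -0.47 (FDR = 0.0516, limma), OPR3, which acts later in that synthesis, by -0.14 (FDR = 0.435, limma), and PR4, a chitin-binding protein, by 0.13 (FDR = 0.531, limma). Of 15 genes of pattern-triggered immunity 4 were measured, and none passed: the kinase BIK1 changed by -0.09 (FDR = 0.686, limma), and the receptors of flagellin and of elongation factor Tu, FLS2 and EFR, by 0.12 (FDR = 0.524, limma) and -0.12 (FDR = 0.51, limma). Of 6 senescence genes 1 was measured, SAG21, which changed by -0.13 (FDR = 0.554, limma). In NP, PL and TL none of the 22 measured genes of these and the marker lists passed the FDR, with 2, 2 and 0 below an unadjusted p of 0.05 (limma).

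**Figure D4:**
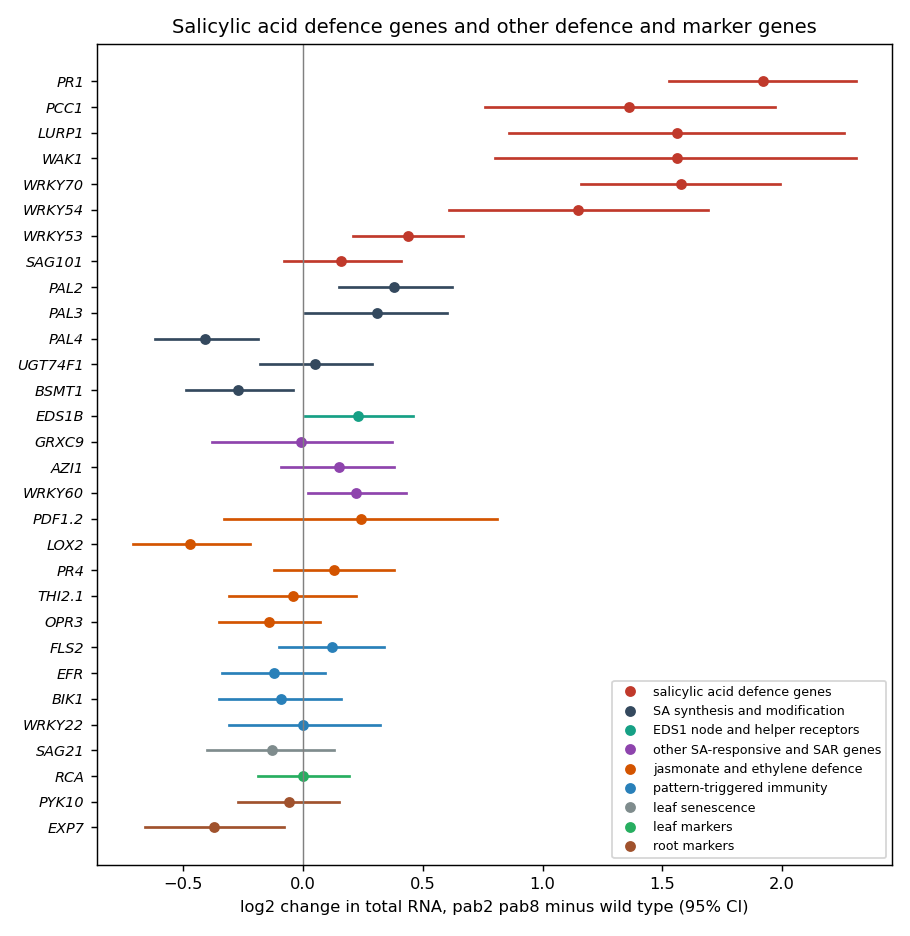
Log2 change in total RNA (pab2 pab8 minus wild type) with its 95% confidence interval for the 8 genes and for the 22 measured genes of the other lists, coloured by list. The intervals of 7 of the 8 genes lie above 0, those of PR1, WRKY70, WRKY54, PCC1, WAK1 and LURP1 wholly above 0.5, and the changes of the other genes lie between -0.47 and 0.38. The probe sets of these 6 were found through the study's tables of changed genes. So were those of some other listed genes that did not pass, such as AZI1, PR4 and SAG21.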

How the data were processed

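RNA from pab2 pab8 and wild-type seedling aerial parts was hybridised to Affymetrix ATH1 arrays. The deposited values are log2 signals, which the authors made by RMA (the affy package) from the total RNA, NP and PL arrays; MAS5 is also named in the submitters' processing notes, without versions. A deposited table of log2 PL minus NP differences per replicate was used only as an alternative for TL. Its 16 columns of NP and PL signals were not used, and it numbers the label's replicate 4 as 5. The number of arrays limits the precision.

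Probe sets were named through the array annotation (13513) or the paper's tables (500), 503 stood for several genes and 8230 were unnamed. Linear models with moderated variances (lmFit, eBayes; limma 3.58.1, R 4.3.3) were fitted to the log2 signals, within each array kind, without filtering or pseudocount, and p-values were adjusted by Benjamini-Hochberg over all 22746 probe sets. A call needed an FDR under 0.05 and a 2-fold change; counts by FDR alone are named as such. Tables were made in Python 3.11.15 with pandas 2.3.3. The fits without the block were run on simulated data with independent noise, which did not examine the block or the pairs. By the labels, both genotypes were grown side by side and each replicate at its own time, and plants of 1 number were therefore taken as pairs. Deviations of same-numbered mutant and wild-type arrays correlated between 0.29 and 0.38 in NP, 0.43 and 0.80 in PL, 0.05 and 0.13 in TL and -0.16 and 0.21 in total RNA. Arrays of unlike number correlated between -0.33 and 0.28 in NP and between -0.67 and 0.62 in PL. For these arrays the range was -0.12 to 0.08 in TL and -0.27 to 0.33 in total RNA. Like and unlike numbers therefore overlapped in PL, TL and total RNA. Values with the replicate number as a block are given where they changed a call. Nothing in the labels says how many plants a sample pooled.

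Alternatives were the block, an intensity trend, bright probe sets only, median centring, quantile normalization within array kind, FDR alone and each replicate left out. The named genes were the 8 genes, for each other list its counts and the 3 genes of smallest p in total RNA, and the 5 probe sets most like the mean profile. The 8 genes and all lists were chosen with earlier results of these data known. Promoter and protein sequences were not used here.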

Additional observations from a re-analysis of the deposited data

Results flagged for a closer look

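In 3 of 48 groups of 4 values (8 genes, NP, PL and TL, both genotypes) 1 replicate lay far from the other 3, where chance gives about 1 in 20. WRKY54 had a TL of 0.28 in replicate 2 of pab2 pab8, against -0.16 to -0.10 in the other 3 replicates. The NP array of that replicate had a median signal of 4.68, against 4.89 or more on the other fraction arrays. WAK1 had a TL of 0.23 in replicate 1 of pab2 pab8, against 1.38 to 1.56 in the others. SAG101 had an NP signal of 5.04 in replicate 3 of pab2 pab8, against 4.60 to 4.64 in the others.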

How the results depend on the processing

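In total RNA, the count of 6 genes called was kept with the block, the intensity trend, both other normalizations and FDR alone, was 5 among probe sets above the median mean signal, which leave out WRKY54, and lay between 1 and 6 with 1 replicate left out. With the replicate block, 1 gene was called in NP and 3 in PL, against 0 in each without it, and 1 (PR1) was called where total RNA was set against NP, as also among probe sets above the median mean signal (1). No other alternative changed these counts in NP, PL, TL or total RNA against PL, including the deposited TL values and a genotype by fraction fit. The block changed no call of the 8 genes in total RNA or TL. Over all probe sets it raised the calls of at least 2-fold to 84 from 16 in NP and to 121 from 31 in PL. It raised them to 31 from 8 for total RNA against NP and to 148 from 3 for total RNA against PL. Of the single changes, 3 turned sign, all small: WRKY53 in NP (-0.03 to 0.26 with 1 replicate left out), SAG101 in NP (-0.30 to 0.08) and WRKY53 in TL (-0.06 to 0.27). The unpaired fit of total RNA against each fraction was chosen after seeing the data. With 3 or 4 arrays a group, the number of arrays limits what these comparisons can show, and the cause of the calls gained with the block was not tested.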
